A study of Danio rerio with 12 samples.

Results

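This account concerns 96 genes of zebrafish cytokine signaling, the interleukins, the tumor necrosis factor (TNF) family and their receptors, in 4 groups of sorted cells. The members were picked from the 32520 genes of the count table by a rule on gene symbols, set with earlier results of these data known. It took all genes whose symbol begins with il and a digit (il34 excepted) or with tnf, and tgfb1a, tgfb1b, ifngr1, csf3a, csf3b and csf3r. Of these, 43 are ligands, 43 are receptors or soluble binding proteins, and 10 are other genes that carry such a name. Most of the 10 have a name that begins with TNFAIP, for TNF-induced protein, which does not show that each is induced by TNF. A count was found in at least 1 library for 76 members, and 54 passed the filter on low counts and were tested.

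The groups were gill GFP cells, gill DsRedx cells, intestine GFP cells and intestine DsRedx cells, with 3 libraries each. All 4 came from adult fish with the transgene pair mpeg1:loxP-DsRedx-loxP-GFP and sox17:CreERT2. In such fish the mpeg1 promoter, active in macrophages, drives a red protein, and a Cre recombinase under the sox17 promoter, which is active in endoderm, switches the color to green. Green cells thus carry a history of Cre activity and are named metaphocytes in the series description. Red cells lack that switch and are named macrophages there. The sources used here do not give how Cre was induced or how often a cell of that ancestry fails to switch. Each library was made by SMART-seq2, a full-length cDNA amplification, from 30 to 50 cells. The labels do not say whether the libraries of a group came from separate fish, so p-values measure only the spread between these samples. In bulk samples of this kind, fewer cells expressing a gene and less RNA of it per cell cannot be told apart.

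Interleukins and TNF family ligands are secreted or membrane-bound messengers between immune cells and the tissues around them. Most interleukin receptors are pairs of chains that signal through JAK kinases and STAT factors. Interleukin 1, interleukin 17 and TNF receptors work instead through adaptor proteins that lead to NF-κB. Myeloid cells are a main source of TNF, interleukin 1 beta and interleukin 12, while epithelia of barrier organs carry receptors of the interleukin 17 and interleukin 10 families.

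The libraries held 5895669 to 12365233 counts and 9506 to 13278 genes with a count. Members together took 0.842 to 0.883% of the counts in gill GFP and 1.18 to 1.43% in gill DsRedx libraries, and 0.583 to 0.903% in intestine GFP and 0.738 to 1.15% in intestine DsRedx libraries. Levels are given as CPM, counts relative to library size after TMM scaling by edgeR, and a standard deviation is over n = 3 libraries. The 3 genes with the symbol MPEG1 summed to 238 to 451 CPM in GFP and 587 to 2720 CPM in DsRedx libraries of the gill, and to 217 to 304 CPM in GFP and 1412 to 2134 CPM in DsRedx libraries of the intestine. Other macrophage markers (7 of 9 listed names were found, as 14 genes) summed to 7.12 to 15.7 CPM in GFP and 1324 to 3441 CPM in DsRedx libraries of the gill, and to 25.6 to 30.0 CPM in GFP and 2495 to 7268 CPM in DsRedx libraries of the intestine. Colony-stimulating factor receptor csf1ra, a defining macrophage gene, had 0 counts in gill GFP and in gill DsRedx 1, and 98.0 to 257 CPM in intestine DsRedx libraries. Epithelial markers (6 genes) ran the other way as a sum, at 5377 to 9590 CPM in gill GFP and 5654 to 7108 CPM in intestine GFP libraries. DsRedx libraries had 482 to 2283 CPM in gill and 464 to 1045 CPM in intestine, most of it krt8. In gill krt8 did not follow the sum, at 592, 487 and 700 CPM in GFP against 418, 2058 and 1439 CPM in DsRedx libraries. The genes epcam, cdh1 and cldn3c were higher in GFP libraries of both tissues. In gill GFP libraries krt4 reached at most 58.1 CPM, and cldne had 0 CPM in intestine GFP libraries. Lymphocyte markers (12 of 14 found, with zap70, cd8b, nkl.2 and nkl.4 at 0 counts) summed to 62.1 to 254 CPM in gill GFP, nearly all of it GATA3. They summed to 1.91 to 263 CPM in gill DsRedx libraries, and in intestine to 0.434 to 1.03 CPM in GFP and 3.86 to 230 CPM in DsRedx libraries. Neutrophil markers (3 of 6 found, with lyz at 0 counts) summed to 124 to 181, 1.72 to 217, 9.95 to 65.7 and 0.371 to 0.797 CPM in gill GFP, gill DsRedx, intestine GFP and intestine DsRedx libraries. In gill GFP libraries these were npsn, at 59.4, 142 and 180 CPM, and MMP9, at 64.7 CPM in gill GFP 1 and at most 0.846 CPM in the others. In gill DsRedx 2 and 3 the sum was nearly all MMP9, at 64.2 and 216 CPM. Enterocyte and goblet markers (4 of 5 found) summed to 822 to 1542 CPM in intestine GFP and 14.0 to 56.1 CPM in intestine DsRedx libraries. In gill they had at most 0.276 CPM. Of these, FABP2 had 730 CPM in intestine GFP 2, against 19.1 and 53.7 CPM in intestine GFP 1 and 3. B cell markers (5 of 6 found) were mostly blnk, read in all 4 groups. Stromal markers reached 145 CPM, in gill DsRedx 3, and ionocyte markers 32.5 CPM, in gill GFP 3. The part of these other cell types in the results below was not tested.

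Genes near absent from a library kept a low level of what the other libraries of its tissue held. In each library, genes near absent from it still showed 0.157 to 0.406% of the summed counts of the other 5 libraries of the same tissue (median over genes with at least 5000 counts in those 5 and a share under 1%). This is called the shared level below. Its source was not tested, and the tests were repeated with it taken off the counts.

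By group mean, other members led in GFP cells than in DsRedx cells. On the TPM scale, which corrects for gene length, il22ra2 led in gill GFP cells at 2384 ± 1332 TPM and in intestine GFP cells at 1862 ± 224 TPM. It encodes a soluble interleukin 22 binding protein in mammals. The next in both GFP groups was il12bb, which encodes the p40 chain of interleukin 12, at 2221 ± 836 TPM in gill and 1739 ± 1108 TPM in intestine. Among DsRedx cells tnfb led in both tissues, at 3011 ± 649 TPM in gill and 2357 ± 1242 TPM in intestine. It was followed by tnfrsf18, a costimulatory TNF receptor of mammalian T cells also called GITR, at 2943 ± 1276 TPM in gill DsRedx cells, and by il1b at 935 ± 1141 TPM in intestine DsRedx cells. Within single libraries, the order of the first and second member held in 1 of 3 gill GFP, 2 of 3 gill DsRedx, 2 of 3 intestine GFP and 3 of 3 intestine DsRedx libraries.

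Detection was patchy, with 10 CPM reached in at least 1 library by 62 members. The level was reached in all 12 libraries by 8 of them: tnfb, tnfrsf1a, TNFAIP3, il12bb, il10rb, il1fma, il1b and il10ra. It was reached in a single library by 6 others: tnfsf13b, tnfaip2a, TNFSF10, il19l, csf3a and il12rb1.

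**Figure D1:**
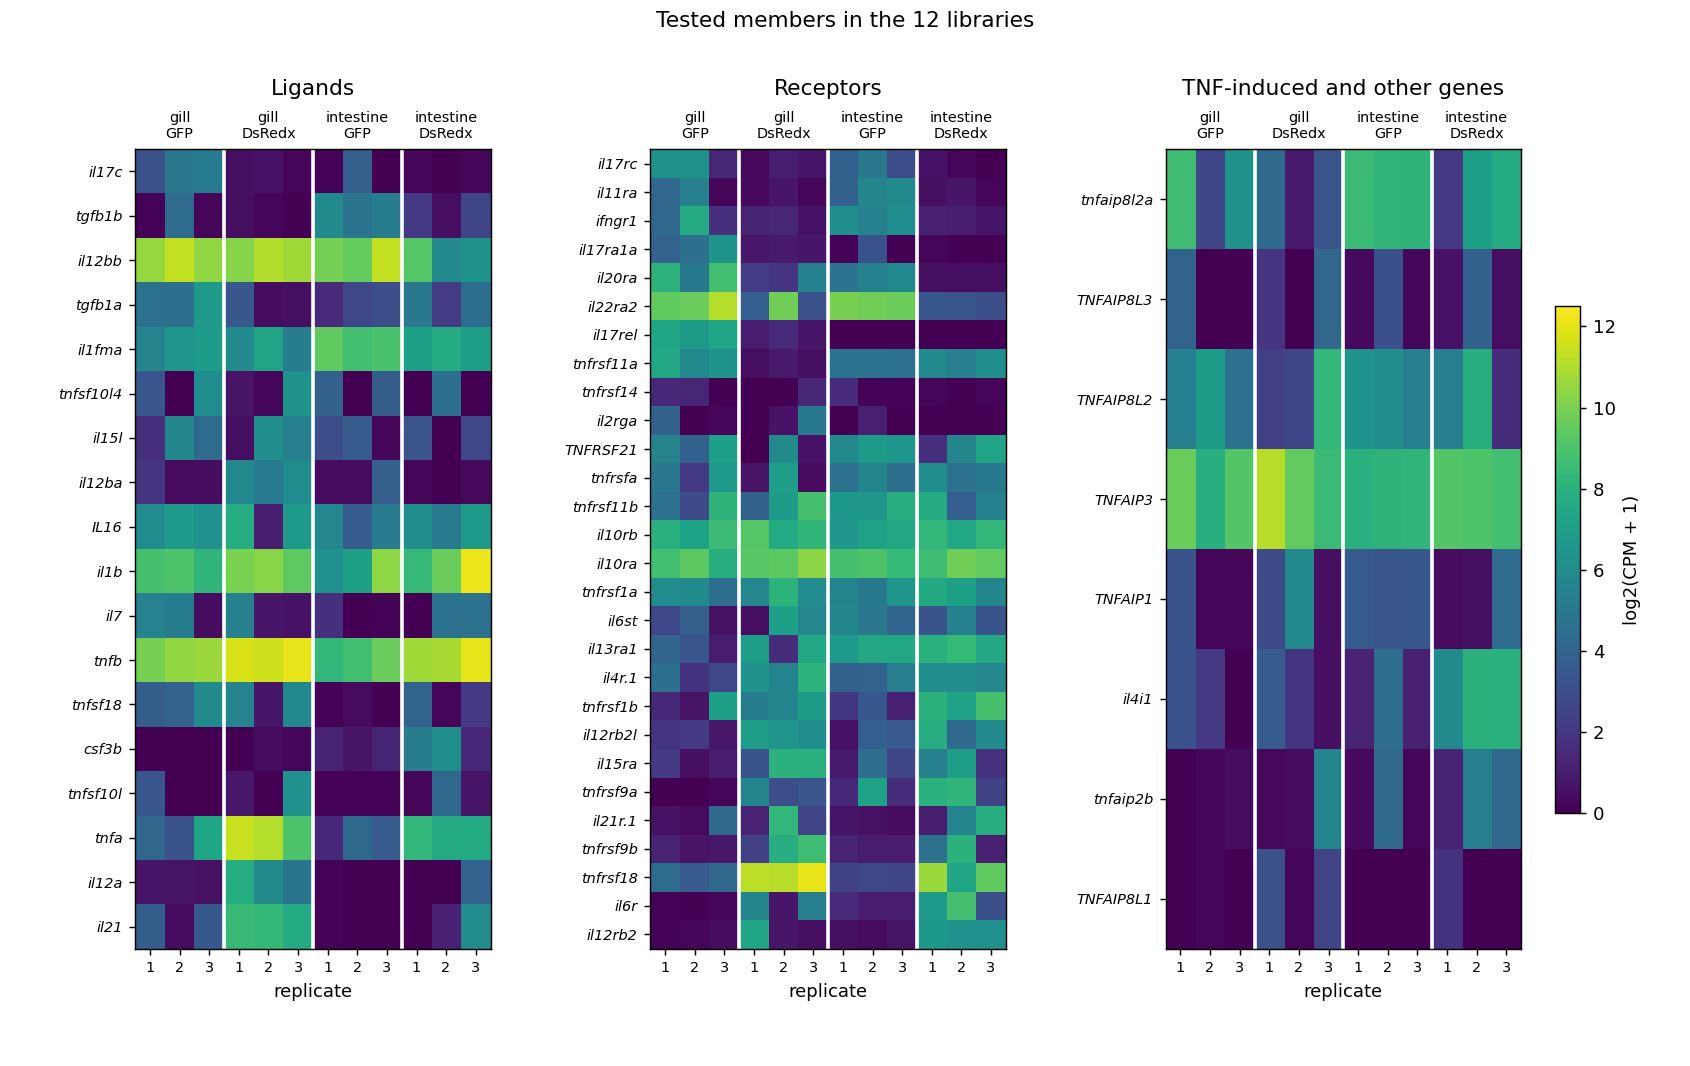
Heat map of the 54 tested members in the 12 libraries, grouped as ligands, receptors, and other genes (rows) by gill GFP, gill DsRedx, intestine GFP and intestine DsRedx libraries (columns). The panel of other genes is titled TNF-induced and other genes, after their names. The color scale is log2(CPM + 1). Bright cells are high and dark cells are low. The row for tnfrsf18 is bright in DsRedx and dark in GFP columns. That for tnfa is likewise, except that gill GFP 3, at 166 CPM, is nearly as bright as the intestine DsRedx columns. The row for il22ra2 shows the reverse apart from gill DsRedx 2, and il17rel shows signal in the gill GFP columns alone above 1.91 CPM.

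The first question was which members separate GFP from DsRedx cells of the same tissue. In the gill, 2 of 54 tested members were higher in GFP cells, where 2.29% of all genes tested were, and 7 were lower, where 2.31% of all genes were. In the intestine, 2 members were again higher (2.09% of all genes) and 7 lower (2.03% of all genes). Averaged over both tissues, 8 members were higher (10.5% of all genes) and 15 lower (7.3% of all genes). A call here is an adjusted p under 0.05 over the 10666 genes tested by edgeR's quasi-likelihood test, and each test was repeated in 12 leave-one-out fits, which each left out 1 library. The filter on low counts was set anew in each of these fits, which tested 11924 to 12527 genes. A call that ended there thus does not by itself show dependence on the library left out. The median log2 fold of GFP over DsRedx for the 54 members was -0.87 in gill, where that of all genes was 0, and -0.92 in intestine, where that of all genes was 0.08. These 3 comparisons use the same libraries, so the averaged calls are not further evidence beside the calls within a tissue. In leave-one-out fits the gill count was as low as 2 without gill GFP 1, 3 without gill GFP 2 or gill GFP 3 and 5 without intestine DsRedx 2. The intestine count was 3 without intestine GFP 1, 4 without intestine GFP 2 or intestine GFP 3 and 5 without intestine DsRedx 2. In the same order, all genes gave 256, 231, 233 and 423 calls in gill, against 490 with all libraries. In intestine they gave 181, 191, 182 and 253 calls, against 439 with all libraries. These fits tested 11924 to 12510 genes. On the log2(TPM + 1) scale, where the median log2 fold of all genes was 0.43 in gill and 0.67 in intestine, limma called 6 members higher (5.27% of all genes) and 5 lower (1.74% of all genes) in gill, and 6 higher (8.2% of all genes) and 6 lower (2.52% of all genes) in intestine. DESeq2 called 25 members in gill (27.4% of all genes with an adjusted p) and 21 in intestine (22.1% of all genes). It gave no adjusted p for il22ra2 and il12rb2 in the reporter comparisons where edgeR called them. The lower calls of edgeR in both tissues were tnfa, tnfrsf18, tnfrsf9b and il6r, and no member was a higher call in both.

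Counted without a test, all 3 GFP libraries lay below all 3 DsRedx libraries for 15 members in gill (7.99% of all genes) and for 15 in intestine (10.4% of all genes). They lay above for 7 members in gill (12.1% of all genes) and 10 in intestine (19.4% of all genes). In both tissues at once the GFP libraries lay below for 7 members (3.39% of all genes), which were tnfa, tnfb, il12rb2, il12rb2l, tnfrsf18, il4r.1 and il6r. They lay above for 2 members (4.13% of all genes), ifngr1 and il17rc. Some of these separations rest on few counts in gill. For il12rb2, gill GFP libraries had 1, 1 and 2 counts, against 4 and 3 counts in gill DsRedx 2 and 3. For il6r they had at most 1 count, against 4 in gill DsRedx 2. Gill GFP 3 had 10 counts of il17rc and 14 of ifngr1, against 6 and 9 in gill DsRedx 2.

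**Figure D2:**
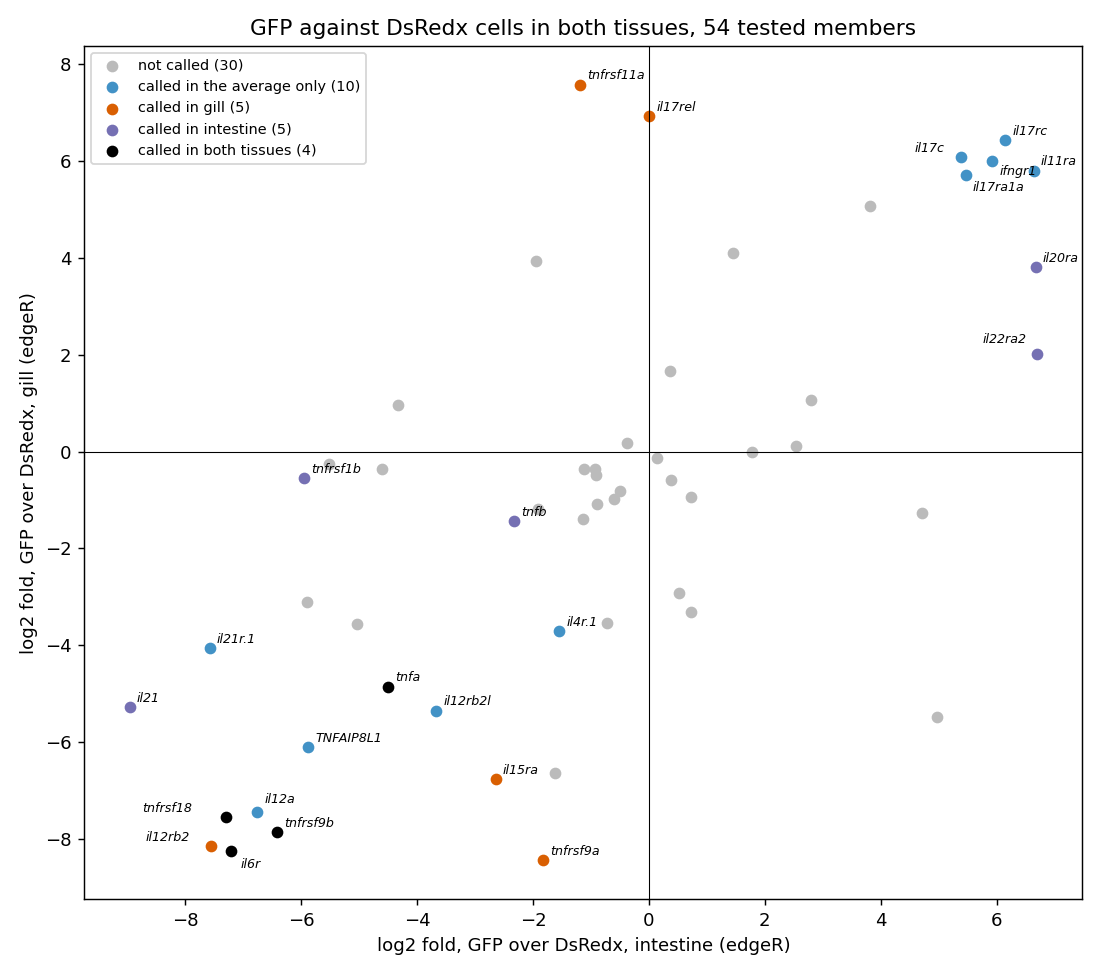
Log2 fold of GFP over DsRedx cells for the 54 tested members, in intestine (x axis) and gill (y axis), colored by where the member was called. Both axes are negative for tnfrsf18, tnfa, tnfrsf9b and il6r, the 4 members called in both tissues, and tnfrsf11a lies at 7.58 in gill and -1.20 in intestine; il17rel had no counts in intestine, so its position at 0 on that axis is not a measured fold.

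By role, 1 of the 18 tested ligands was called in gill and 3 in intestine, all lower in GFP cells. Of the 28 tested receptors, 2 were higher and 6 lower in gill, and 2 were higher and 4 lower in intestine. Of all genes, 2.31% were lower and 2.29% higher in gill, and 2.03% were lower and 2.09% higher in intestine. The single ligand called in gill was tnfa. Ligands and receptors were not tested against each other.

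Both TNF genes of zebrafish were called lower in GFP cells, tnfa in both tissues and tnfb in intestine. The gene tnfa encodes tumor necrosis factor, the founding cytokine of the family, and was read at 16.3, 8.32 and 166 CPM in gill GFP libraries, against 2829, 2179 and 506 CPM in gill DsRedx libraries. The groups did not overlap, but gill GFP 3 stood well above the other gill GFP libraries. The fall was 28.9-fold (log2 fold -4.85, SE 1.09, adjusted p = 0.0133), and the call ended without gill GFP 1 (adjusted p = 0.0532) and held in the other 11 leave-one-out fits (log2 fold over all 12 fits -7.21 without gill GFP 3 to -4.33). Intestine GFP libraries had 1.65, 18.6 and 11 CPM, against 311, 200.3 and 198 CPM in intestine DsRedx libraries, again without overlap. There the fall was 22.7-fold (log2 fold -4.51, SE 1.07, adjusted p = 0.0177), and the call ended without intestine GFP 1 (adjusted p = 0.0807) and intestine GFP 3 (adjusted p = 0.0887) and held in the other 10 leave-one-out fits (log2 fold over all 12 fits -5.21 without intestine GFP 2 to -4.0). The shared level of tnfa was 7.1 to 12.2 CPM in gill GFP and 1.41 to 1.66 CPM in intestine GFP libraries. With that level removed the call was lost in gill (log2 fold -4.94, adjusted p = 0.109) and in intestine (log2 fold -4.64, adjusted p = 0.134), with folds as large as before, and kept in the average over tissues (adjusted p = 0.00945).

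The second TNF gene, tnfb, was expressed in every library. It reached 985, 1409 and 1584 CPM in gill GFP libraries, against 3404, 3119 and 4214 CPM in gill DsRedx libraries, and 306, 419 and 799.8 CPM in intestine GFP libraries, against 1672, 1862 and 4146 CPM in intestine DsRedx libraries. DsRedx libraries lay above GFP libraries in each tissue. The fall in intestine was 5.04-fold (log2 fold -2.33, SE 0.498, adjusted p = 0.00818), and the call ended without intestine GFP 1 (adjusted p = 0.0666) and intestine GFP 2 (adjusted p = 0.0645) and held in the other 10 leave-one-out fits (log2 fold over all 12 fits -3.04 without intestine GFP 3 to -1.98). In gill the difference did not pass the test (log2 fold -1.43, SE 0.484, adjusted p = 0.0925). Averaged over tissues tnfb fell 3.69-fold (adjusted p = 0.000964), and that call held in all 12 leave-one-out fits (log2 fold -2.23 to -1.71). All 3 intestine GFP libraries were more than 2 times the shared level of 18.9 to 21.3 CPM. The sources used here do not say how reads common to tnfa and tnfb were counted, so their levels carry that uncertainty.

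The gene il21 was called lower in intestine GFP cells, and il12a, which encodes a chain of interleukin 12, in the average only. The cytokine gene il21, made by activated T cells in mammals, had 11.7, 0.282 and 9.95 CPM in gill GFP libraries, against 337, 321 and 199 CPM in gill DsRedx libraries, without overlap and without a call (log2 fold -5.29, SE 1.88, adjusted p = 0.104). Without intestine DsRedx 3 the gill difference passed (log2 fold -5.32, adjusted p = 0.0491). In intestine, GFP libraries had 1, 0 and 0 counts, against 0, 9 and 518 counts in DsRedx libraries, so that nearly all of the intestinal signal lay in intestine DsRedx 3. The fall in intestine was 820.3-fold by the ratio of pooled rates, with a 95% counting interval of 147 to 32460.0 (adjusted p = 0.028), and the call ended without intestine GFP 1 (adjusted p = 0.0801), intestine GFP 2 (adjusted p = 0.142), intestine GFP 3 (adjusted p = 0.153) and intestine DsRedx 3 (adjusted p = 0.273) and held in the other 8 leave-one-out fits (log2 fold over all 12 fits -10.46 without intestine GFP 1 to -3.95 without intestine DsRedx 3). Where a group held 3 counts or fewer, such fitted log2 folds depend on the prior count of the model. Intestine DsRedx libraries had 3.31, 112 and 230.3 CPM of cd4-1, a T cell gene that zebrafish mononuclear phagocytes also express, while the T cell gene lck had 0 counts in all intestine libraries. In gill DsRedx 1, with 337 CPM of il21, the lymphocyte markers summed to 1.91 CPM. The part of T cells in the result was not tested. In the average over tissues il21 was called lower (adjusted p = 0.0028), and the call held in all 12 leave-one-out fits (log2 fold -7.87 without intestine GFP 1 to -4.64 without intestine DsRedx 3).

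The p35 chain of interleukin 12, encoded by il12a, was read at 0.638, 0.564 and 0.467 CPM in gill GFP libraries, against 211, 61.6 and 28 CPM in gill DsRedx libraries. The intestine gave 1, 0 and 0 counts in GFP libraries, against 0, 0 and 115 counts in DsRedx libraries. It was called lower only in the average (adjusted p = 0.0104), and the call ended without intestine DsRedx 3 (adjusted p = 1) and held in the other 11 leave-one-out fits (log2 fold over all 12 fits -7.85 without intestine GFP 1 to -3.02 without intestine DsRedx 3). In gill alone its adjusted p was 0.0926, and 0.0473 without intestine DsRedx 3.

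The 2 genes for the p40 chain, il12ba and il12bb, were not called in either tissue. The more abundant, il12bb, reached 1455, 2627 and 1376 CPM in gill GFP libraries, against 1182, 2168 and 1664 CPM in gill DsRedx libraries, so that the groups overlapped (log2 fold 0.12, adjusted p = 0.964). In intestine it reached 961, 756 and 2576 CPM in GFP libraries, against 597, 58.1 and 86.1 CPM in DsRedx libraries, where only intestine DsRedx 1 was near the GFP values. This difference did not pass the test (log2 fold 2.53, SE 0.738, adjusted p = 0.058), and did without intestine DsRedx 1 (log2 fold 4.09, adjusted p = 0.00134). Its paralog il12ba had 2.87, 0.282 and 0.311 CPM in gill GFP libraries, against 56.8, 36.2 and 65.1 CPM in gill DsRedx libraries. In intestine, il12ba had 4, 3 and 176 counts in GFP libraries, against 1, 0 and 2 counts in DsRedx libraries. The DsRedx libraries were thus the higher ones in gill and the lower ones in intestine, and neither difference was called (adjusted p = 0.134 in gill and 0.191 in intestine). The colors overlapped in neither tissue, but in intestine this rests on 3 counts in intestine GFP 2 against 2 in intestine DsRedx 3. Reads common to il12ba and il12bb carry the uncertainty named for the TNF genes.

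One ligand was called higher in GFP cells, in the average only. It was il17c, an interleukin 17 made by epithelial cells in mammals, with 7.54, 29.8 and 36.1 CPM in gill GFP libraries, against 0.382, 0.522 and 0.138 CPM in gill DsRedx libraries. Intestine GFP libraries had 1, 133 and 0 counts, against 1, 0 and 1 counts in intestine DsRedx libraries, so a single intestinal library carried the gene. The averaged call (adjusted p = 0.0408) ended in each of the 12 leave-one-out fits (log2 fold 2.64 without intestine GFP 2 to 6.02, adjusted p 0.057 to 0.411).

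Interleukin 1 beta, the inflammatory cytokine encoded by il1b, was not called. It had 459, 526 and 289 CPM in gill GFP libraries, against 1005, 1242 and 671 CPM in gill DsRedx libraries, and 79.1, 137 and 1319 CPM in intestine GFP libraries, against 334, 799 and 4676 CPM in intestine DsRedx libraries. Gill libraries did not overlap, and intestine libraries spread over a wide range in both colors. The adjusted p was 0.387 in gill, 0.201 in intestine and 0.0936 in the average. Without intestine GFP 3, il1b passed in intestine (log2 fold -4.40, adjusted p = 0.0261) and in the average (log2 fold -2.81, adjusted p = 0.00604), and without intestine DsRedx 1 in the average (log2 fold -1.94, adjusted p = 0.0335). The fish interleukin 1 family gene il1fma was read at 689, 414 and 489 CPM in intestine GFP libraries, against 131, 207 and 127 CPM in intestine DsRedx libraries, without overlap or a call (log2 fold 1.78, SE 0.779, adjusted p = 0.176). In gill it had 47.2, 89.5 and 119 CPM in GFP libraries and 61, 158 and 38.6 CPM in DsRedx libraries, which overlapped.

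Of the remaining ligands looked up, the transforming growth factor gene tgfb1a had 25.4, 23.7 and 107 CPM in gill GFP libraries, against 9.37, 0.348 and 0.414 CPM in gill DsRedx libraries, and its paralog tgfb1b had 60.9, 26.9 and 37.5 CPM in intestine GFP libraries, against 3.31, 0.398 and 5.19 CPM in intestine DsRedx libraries. Neither difference was called (adjusted p = 0.182 for tgfb1a and 0.329 for tgfb1b), although neither pair of groups overlapped. In the other tissue both genes overlapped between colors. The granulocyte growth factor gene csf3b had 1.39, 0.574 and 1.47 CPM in intestine GFP libraries, against 38.7, 73.3 and 1.73 CPM in intestine DsRedx libraries, and at most 0.348 CPM in any gill library (adjusted p = 0.2 in intestine).

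**Figure D3:**
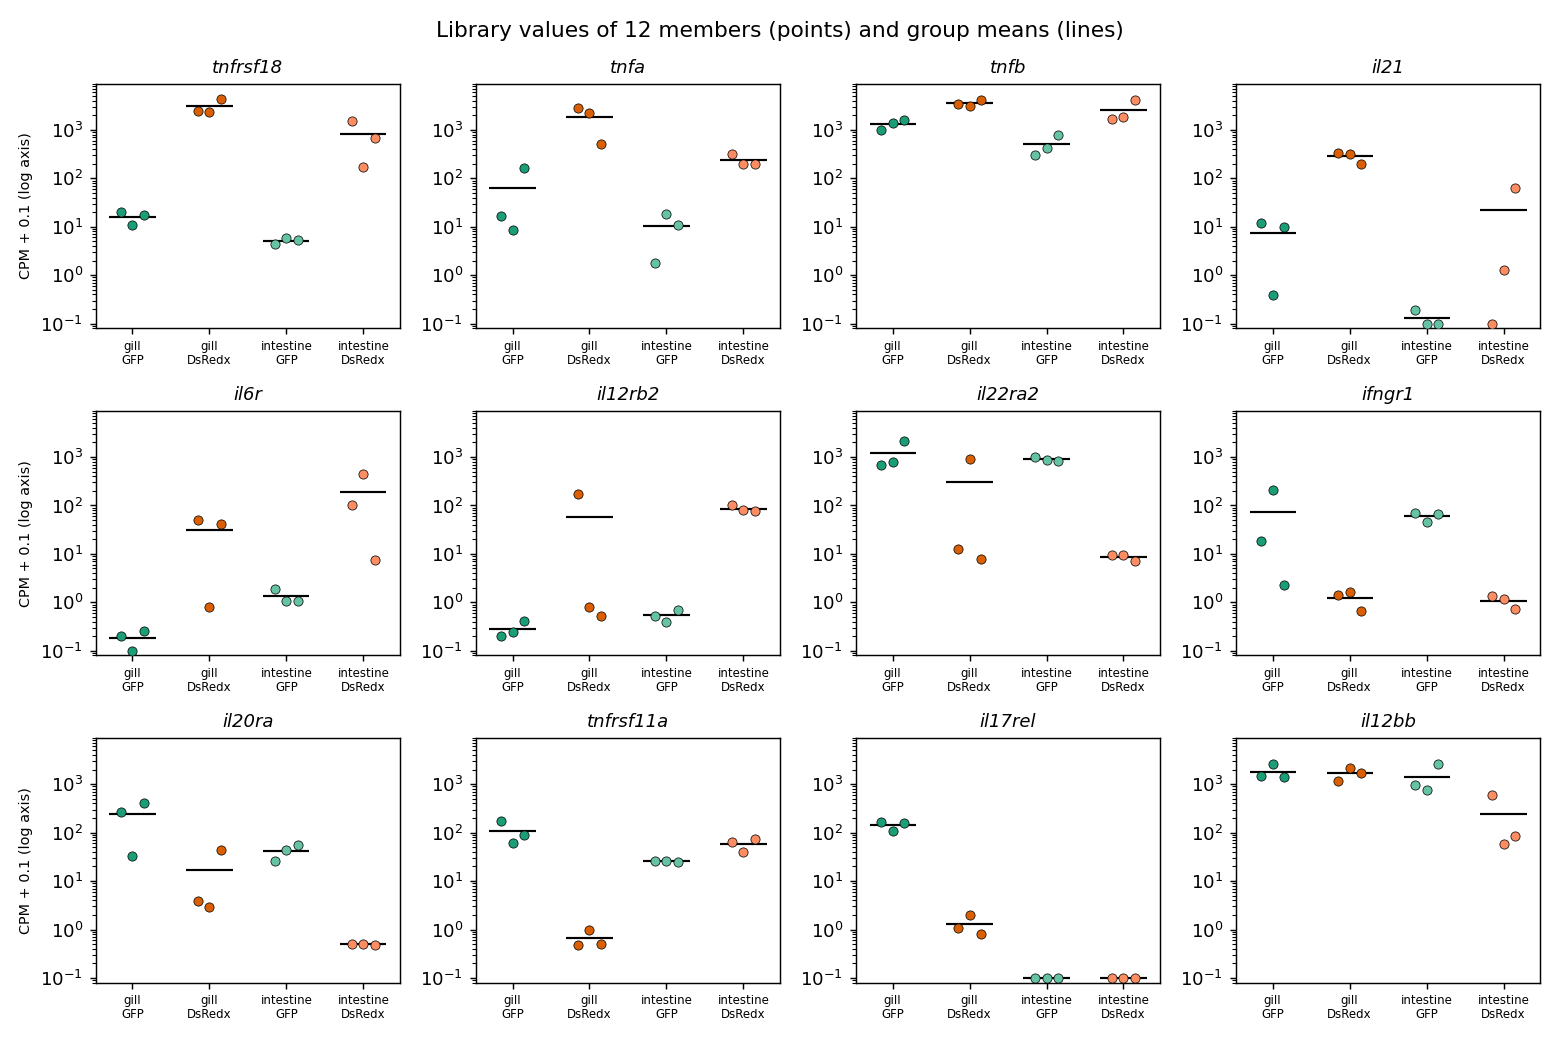
Levels of 12 members in CPM + 0.1 on a log axis, with gill GFP, gill DsRedx, intestine GFP and intestine DsRedx along the x axis of each panel; points are libraries and lines are group means. The GFP libraries of tnfrsf18 lie between 4.34 and 20.1 CPM and its DsRedx libraries between 169 and 4402 CPM; il17rel is at 0 in the 6 intestine libraries.

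Of all members, tnfrsf18 had the lowest adjusted p between colors in both tissues. It was read at 20.1, 11 and 17.3 CPM in gill GFP libraries, against 2415, 2301 and 4402 CPM in gill DsRedx libraries, a fall of 188-fold (log2 fold -7.56, SE 0.822, adjusted p = 2.06e-05). In intestine, GFP libraries had 4.34, 5.65 and 5.2 CPM, against 1554, 169 and 689 CPM in DsRedx libraries, a fall of 158-fold (log2 fold -7.31, SE 0.814, adjusted p = 1.58e-05). Every DsRedx library thus exceeded every GFP library. The gill call held in all 12 leave-one-out fits (log2 fold -7.75 to -7.24), and the intestine call held in all 12 leave-one-out fits (log2 fold -7.78 to -6.64 without intestine DsRedx 1). The GFP values lay close to the shared level, 12.8 to 22.8 CPM in gill GFP and 4.65 to 5.43 CPM in intestine GFP libraries. With it removed, tnfrsf18 still passed in gill (adjusted p = 0.00894) and in intestine (adjusted p = 0.00447). Its ligand gene tnfsf18 had 12, 14.2 and 61.6 CPM in gill GFP libraries and 47.6, 0.696 and 56.4 CPM in gill DsRedx libraries, which overlapped, and at most 15.6 CPM in intestine (adjusted p = 0.982 in gill and 0.17 in intestine).

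The pair tnfrsf9a and tnfrsf9b corresponds to 4-1BB, another costimulatory TNF receptor of mammals. The first, tnfrsf9a, had 0, 0 and 1 counts in gill GFP libraries, against 48.9, 6.78 and 8.97 CPM in gill DsRedx libraries, a fall of 453-fold by the ratio of pooled rates, with a 95% counting interval of 80.8 to 17940.0 (adjusted p = 0.0416). That call ended without gill GFP 1, gill GFP 2, gill GFP 3, gill DsRedx 1, intestine DsRedx 1 and intestine DsRedx 2 (log2 fold over all 12 fits -10.50 without gill GFP 3 to -7.04 without gill DsRedx 1, adjusted p 0.0524 to 0.138). In intestine its values overlapped, with 1.65, 151 and 1.98 CPM in GFP libraries, against 248, 296 and 4.32 CPM in DsRedx libraries (adjusted p = 0.595). The averaged call (adjusted p = 0.0187) held in all 12 leave-one-out fits (log2 fold -7.53 without intestine GFP 2 to -4.53 without gill DsRedx 1). The second, tnfrsf9b, stayed at 1.28, 0.564 and 0.778 CPM in gill GFP libraries, against 4.21, 220.3 and 398 CPM in gill DsRedx libraries (233-fold lower, log2 fold -7.86, SE 1.94, adjusted p = 0.0238). The intestine gave 1.39, 0.957 and 0.953 CPM in GFP libraries, against 24.1, 261 and 1.11 CPM in DsRedx libraries, which overlapped through intestine DsRedx 3 (85.7-fold lower, log2 fold -6.42, SE 1.81, adjusted p = 0.0485). The gill call ended without gill GFP 1 (adjusted p = 0.0787), gill GFP 2 (adjusted p = 0.098), gill GFP 3 (adjusted p = 0.0991) and gill DsRedx 3 (adjusted p = 0.0612) and held in the other 8 leave-one-out fits (log2 fold over all 12 fits -8.48 without gill DsRedx 1 to -7.03 without gill DsRedx 3), and the intestine call held in 4 of 12 leave-one-out fits, those without gill DsRedx 1, gill DsRedx 2, intestine DsRedx 1 and intestine DsRedx 3, and ended in the rest (log2 fold over all 12 fits -7.18 without intestine DsRedx 3 to -3.50 without intestine DsRedx 2, adjusted p 0.053 to 0.3). Averaged over tissues the fall of tnfrsf9b was 141-fold (adjusted p = 0.00102), and the call held in all 12 leave-one-out fits (log2 fold -7.53 to -5.68 without intestine DsRedx 2). Reads common to the pair carry the uncertainty named for the TNF genes.

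The ligand-binding chain of the interleukin 6 receptor, il6r, was lower in GFP cells of both tissues. It had 1, 0 and 1 counts in gill GFP libraries, against 50.9, 0.696 and 42.2 CPM in gill DsRedx libraries, where gill DsRedx 2 was the low one. The fall in gill was 362-fold by the ratio of pooled rates, with a 95% counting interval of 99.9 to 2999 (adjusted p = 0.0254). Intestine GFP libraries had 1.82, 0.957 and 0.953 CPM, against 102, 448 and 7.29 CPM in intestine DsRedx libraries, a fall of 148-fold (log2 fold -7.21, SE 1.91, adjusted p = 0.035). Neither tissue showed overlap, although intestine DsRedx 3 was near the GFP values. The gill call ended without gill GFP 1 (adjusted p = 0.0968), gill GFP 2 (adjusted p = 0.104), gill GFP 3 (adjusted p = 0.0888) and intestine DsRedx 2 (adjusted p = 0.0738) and held in the other 8 leave-one-out fits (log2 fold over all 12 fits -8.87 without gill DsRedx 2 to -7.76). In intestine the call ended without intestine GFP 1 (adjusted p = 0.147), intestine GFP 2 (adjusted p = 0.184), intestine GFP 3 (adjusted p = 0.18) and intestine DsRedx 2 (adjusted p = 0.271) and held in the other 8 leave-one-out fits (log2 fold over all 12 fits -7.95 without intestine DsRedx 3 to -5.44 without intestine DsRedx 2), and in the average (adjusted p = 0.000843) it held in all 12 leave-one-out fits (log2 fold -8.12 to -6.85 without intestine DsRedx 2). Its signaling partner il6st was not called and overlapped in both tissues, at 5.31, 12.7 and 0.467 CPM in gill GFP and 0.382, 130.2 and 53.7 CPM in gill DsRedx libraries.

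The interleukin 12 receptor gene il12rb2 was called lower in gill GFP cells, and il12rb2l in the average only. The signaling chain gene il12rb2 had 0.106, 0.141 and 0.311 CPM in gill GFP libraries, against 168, 0.696 and 0.414 CPM in gill DsRedx libraries, so that gill DsRedx 1 alone carried the gill signal. The fall was 286-fold (log2 fold -8.16, SE 2.3, adjusted p = 0.0465), and the call held in 2 of 12 leave-one-out fits, those without gill DsRedx 2 and gill DsRedx 3, and ended in the rest (log2 fold over all 12 fits -8.78 without gill DsRedx 3 to -1.54 without gill DsRedx 1, adjusted p 0.0507 to 0.602). In intestine, GFP libraries had 0.434, 0.287 and 0.586 CPM, against 101, 79.6 and 75.7 CPM in DsRedx libraries, where all 3 DsRedx libraries were alike. This intestinal difference missed the threshold (log2 fold -7.57, SE 2.22, adjusted p = 0.0597), and passed without gill DsRedx 1, 2 or 3 (0.0196 to 0.0268 for adjusted p). Averaged over tissues the fall was 232-fold (adjusted p = 0.00229), and the call held in all 12 leave-one-out fits (log2 fold -8.27 to -4.62 without gill DsRedx 1). The related il12rb2l had 2.87, 3.38 and 0.778 CPM in gill GFP libraries, against 129.6, 91.3 and 68.9 CPM in gill DsRedx libraries, and 0.521, 12.4 and 10.1 CPM in intestine GFP libraries, against 218, 18.5 and 59.3 CPM in intestine DsRedx libraries. It overlapped in neither tissue and was called in the average (22.9-fold lower, log2 fold -4.51, SE 1.09, adjusted p = 0.009), a call that held in all 12 leave-one-out fits (log2 fold -4.77 to -3.98).

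The interleukin 15 receptor gene il15ra was called lower in gill GFP cells, and il21r.1 and il4r.1 in the average only. The interleukin 15 receptor chain gene il15ra had 3.29, 0.423 and 0.933 CPM in gill GFP libraries, against 8.41, 262 and 246 CPM in gill DsRedx libraries, without overlap. It fell 109-fold (log2 fold -6.77, SE 1.91, adjusted p = 0.0461), and the call held in 3 of 12 leave-one-out fits, those without gill DsRedx 1, intestine DsRedx 1 and intestine DsRedx 3, and ended in the rest (log2 fold over all 12 fits -7.95 without gill GFP 1 to -6.32, adjusted p 0.0516 to 0.152). In intestine it overlapped, with 0.868, 21.2 and 5.13 CPM in GFP libraries, against 42.7, 126 and 2.47 CPM in DsRedx libraries. The averaged call (26.2-fold lower, adjusted p = 0.0141) held in all 12 leave-one-out fits (log2 fold -5.49 without intestine GFP 2 to -4.04 without intestine DsRedx 2). The interleukin 21 receptor gene il21r.1 had 0.531, 0.282 and 18.3 CPM in gill GFP libraries, against 1.34, 314 and 4.83 CPM in gill DsRedx libraries, and 0.608, 0.478 and 0.293 CPM in intestine GFP libraries, against 1.1, 49.1 and 222 CPM in intestine DsRedx libraries. A few DsRedx libraries held most of its counts, and it was called in the average (56.6-fold lower, log2 fold -5.82, SE 1.58, adjusted p = 0.0181), where the call ended without gill DsRedx 2 (adjusted p = 0.111), intestine GFP 2 (adjusted p = 0.0531) and intestine GFP 3 (adjusted p = 0.0585) and held in the other 9 leave-one-out fits (log2 fold over all 12 fits -7.77 without gill GFP 3 to -3.32 without gill DsRedx 2). The interleukin 4 receptor gene il4r.1 had 22.3, 2.54 and 5.6 CPM in gill GFP libraries, against 83.2, 48.3 and 269.5 CPM in gill DsRedx libraries, and 13.6, 14.5 and 39.2 CPM in intestine GFP libraries, against 70.8, 72.5 and 54.5 CPM in intestine DsRedx libraries. It did not overlap in either tissue, and its averaged call (6.21-fold lower, adjusted p = 0.0498) held in 1 of 12 leave-one-out fits, the one without gill DsRedx 2, and ended in the rest (log2 fold over all 12 fits -3.29 without gill GFP 1 to -2.26, adjusted p 0.0508 to 0.144). The common gamma chain gene il2rga was not called and exceeded 2 CPM in only 2 libraries, gill GFP 1 at 13.5 CPM and gill DsRedx 3 at 32.4 CPM. The T cell gene lck had 37.2 CPM in gill DsRedx 2 and 186 CPM in gill DsRedx 3. In the same libraries cd8a had 0.174 and 56.7 CPM, cd4-1 had 0.348 and 19.2 CPM and GATA3 had 1.04 and 1.38 CPM. The other lymphocyte markers found, ZAP70, cd247, cd8b, cd28, CCR7, rorc, nkl.2 and nkl.4, had 0 CPM in both libraries. The part of lymphocytes in these receptor results was not tested.

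Of the 2 genes for the receptors of TNF itself, 1 was called. The inducible receptor gene tnfrsf1b was lower in intestine GFP libraries, at 3.12, 9.85 and 1.17 CPM, against 261, 147 and 467 CPM in intestine DsRedx libraries (61.8-fold lower, log2 fold -5.95, SE 1.68, adjusted p = 0.0493). The call ended without intestine GFP 1, intestine GFP 2, intestine GFP 3, intestine DsRedx 1, intestine DsRedx 2 and intestine DsRedx 3 (log2 fold over all 12 fits -7.07 without intestine GFP 2 to -5.63, adjusted p 0.0621 to 0.223). In gill it overlapped, with 1.7, 0.564 and 132 CPM in GFP libraries, against 37.9, 48.5 and 110.3 CPM in DsRedx libraries. Its averaged call (9.52-fold lower, adjusted p = 0.0377) held in 4 of 12 leave-one-out fits, those without gill GFP 3, gill DsRedx 1, gill DsRedx 2 and intestine DsRedx 2, and ended in the rest (log2 fold over all 12 fits -5.88 without gill GFP 3 to -2.96, adjusted p 0.0517 to 0.0886). The broadly expressed death domain receptor gene tnfrsf1a was not called and overlapped in both tissues, with 66.3, 59.5 and 21.6 CPM in gill GFP libraries, 54.7, 268 and 63.5 CPM in gill DsRedx libraries, 49, 32.5 and 90.2 CPM in intestine GFP libraries and 189.6, 138 and 52.4 CPM in intestine DsRedx libraries.

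The genes il22ra2 and il20ra were called higher in intestine GFP cells. The interleukin 22 binding protein gene il22ra2 reached 979, 873 and 826 CPM in intestine GFP libraries, against 9.51, 9.29 and 6.92 CPM in intestine DsRedx libraries. The rise was 104-fold (log2 fold 6.70, SE 1.34, adjusted p = 0.00527), and the call held in all 12 leave-one-out fits (log2 fold 6.38 to 6.76). DsRedx values there were at the shared level of 10.5 to 10.8 CPM. Gill GFP libraries had 699.6, 799.6 and 2173 CPM, against 12.4, 891 and 7.59 CPM in gill DsRedx libraries, so that gill DsRedx 2 alone among the DsRedx libraries carried the gene at the GFP level. The same library had 43.5 CPM of the epithelial adhesion gene epcam, against 14.2 and 18.6 CPM in gill DsRedx 1 and 3, and 137 CPM of cdh1, against 13.4 and 16.8 CPM. Gill GFP libraries had 488 to 1931 CPM of epcam and 1027 to 1225 CPM of cdh1. In gill DsRedx 2 krt8 had 2058 CPM, against 418 and 1439 CPM in gill DsRedx 1 and 3. Its cldn3c had 44.2 CPM, against 36.5 and 34.0 CPM there. In gill DsRedx 2 krt4 had 0 CPM and cldne 0.348 CPM. The part of epithelial cells in the il22ra2 value of gill DsRedx 2 was not tested. With all libraries the gill difference did not pass (log2 fold 2.01, SE 1.09, adjusted p = 0.212), and without gill DsRedx 2 it did (log2 fold 6.93, adjusted p = 4.24e-05). The averaged rise of 20.5-fold (adjusted p = 0.00165) held in all 12 leave-one-out fits (log2 fold 3.96 to 6.74 without gill DsRedx 2).

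The receptor chain gene il20ra, whose mammalian product pairs with IL10RB or IL20RB, followed the same order. It had 26.5, 43.5 and 55.2 CPM in intestine GFP libraries, against 0.413, 0.398 and 0.371 CPM in intestine DsRedx libraries (102-fold higher, log2 fold 6.67, SE 1.57, adjusted p = 0.0163), and the call ended without intestine GFP 3 (adjusted p = 0.0659), intestine DsRedx 1 (adjusted p = 0.076), intestine DsRedx 2 (adjusted p = 0.074) and intestine DsRedx 3 (adjusted p = 0.0746) and held in the other 8 leave-one-out fits (log2 fold over all 12 fits 6.21 to 6.92). Gill GFP libraries had 267, 32.3 and 418 CPM, against 3.82, 2.78 and 44.6 CPM in gill DsRedx libraries, where gill DsRedx 3 overlapped with gill GFP 2. The gill difference passed only without gill DsRedx 3 (log2 fold 6.14, adjusted p = 0.0437), among the 12 fits that each left out 1 library. In the average il20ra rose 37.8-fold (adjusted p = 0.00178), and the call held in all 12 leave-one-out fits (log2 fold 4.91 to 6.30 without gill DsRedx 3).

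RANK, the receptor encoded by tnfrsf11a, is known for its part in osteoclast formation and in epithelial cells. Gill GFP libraries had 177, 61.3 and 89.1 CPM, against 0.382, 0.869 and 0.414 CPM in gill DsRedx libraries, a rise of 191-fold (log2 fold 7.58, SE 1.59, adjusted p = 0.00759). The call held in all 12 leave-one-out fits (log2 fold 7.05 to 8.0) and passed with the shared level removed (adjusted p = 0.00748). In intestine the order was the other way, with 25.9, 26.3 and 24.9 CPM in GFP libraries, against 62.7, 40.0 and 74 CPM in DsRedx libraries, without overlap and without a call (log2 fold -1.20, SE 1.2, adjusted p = 0.648). The averaged call (9.14-fold higher, adjusted p = 0.0232) thus rests on the gill, and held in 3 of 12 leave-one-out fits, those without gill GFP 2, gill GFP 3 and gill DsRedx 2, and ended in the rest (log2 fold over all 12 fits 2.93 to 3.34, adjusted p 0.0529 to 0.0824). The ligand gene tnfsf11 had 0 counts in all 12 libraries. The soluble decoy gene tnfrsf11b overlapped between colors in both tissues, at 25.4, 6.35 and 281 CPM in gill GFP and 13.8, 121 and 461 CPM in gill DsRedx libraries.

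Of the interleukin 17 receptor genes, il17rel was called higher in gill GFP cells, and il17rc and il17ra1a in the average only. The gene named il17rel, an interleukin 17 receptor-like gene, had 167, 109.7 and 159.7 CPM in gill GFP libraries, against 0.956, 1.91 and 0.69 CPM in gill DsRedx libraries, and 0 counts in all 6 intestine libraries. The rise in gill was 121-fold (log2 fold 6.92, SE 1.85, adjusted p = 0.0435), and the call held in 3 of 12 leave-one-out fits, those without intestine DsRedx 1, intestine DsRedx 2 and intestine DsRedx 3, and ended in the rest (log2 fold over all 12 fits 6.61 to 7.42, adjusted p 0.0627 to 0.138). The receptor chain gene il17rc had 85.2, 83.5 and 1.55 CPM in gill GFP libraries, against 0.191, 1.04 and 0.69 CPM in gill DsRedx libraries, and 13.5, 30.9 and 6.82 CPM in intestine GFP libraries, against 0.551, 0.133 and 0 CPM in intestine DsRedx libraries. It overlapped in neither tissue and was called in the average (78.2-fold higher, log2 fold 6.29, SE 1.61, adjusted p = 0.0128), a call that held in all 12 leave-one-out fits (log2 fold 5.89 to 6.97 without intestine DsRedx 1). The gene of its usual partner chain, il17ra1a, had 14, 23.4 and 86.9 CPM in gill GFP libraries, against 0.765, 0.869 and 0.69 CPM in gill DsRedx libraries, without overlap. The intestine gave 1, 82 and 0 counts in GFP libraries, against 1, 0 and 0 counts in DsRedx libraries. Its averaged call (adjusted p = 0.0392) ended in each of the 12 leave-one-out fits (log2 fold 2.83 without intestine GFP 2 to 6.53 without intestine DsRedx 1, adjusted p 0.0518 to 0.348). IL17RD, which was below the filter and not tested, lay the other way in gill, with 0, 0 and 0 counts in GFP libraries, against 49, 5 and 30 counts in DsRedx libraries.

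The interferon gamma receptor gene ifngr1 lay higher in every GFP library than in any DsRedx library of its tissue. It had 18, 204 and 2.18 CPM in gill GFP libraries, against 1.34, 1.57 and 0.552 CPM in gill DsRedx libraries, and 69.4, 44.8 and 66.2 CPM in intestine GFP libraries, against 1.24, 1.06 and 0.618 CPM in intestine DsRedx libraries. Gill GFP 2 stood far above the other gill GFP libraries. Within a tissue it missed the threshold (adjusted p = 0.073 in gill and 0.0855 in intestine). The averaged rise was 62.5-fold (log2 fold 5.97, SE 1.32, adjusted p = 0.00464), and the call held in all 12 leave-one-out fits (log2 fold 4.53 without gill GFP 2 to 6.26). The interleukin 11 receptor gene il11ra had 16.6, 42.6 and 0.155 CPM in gill GFP libraries, against 0.191, 0.696 and 0.138 CPM in gill DsRedx libraries, which overlapped through gill GFP 3. Intestine GFP libraries had 13.7, 49.8 and 60.8 CPM, against 0.413, 0.664 and 0.124 CPM in intestine DsRedx libraries, without overlap. The averaged call (74.6-fold higher, log2 fold 6.22, SE 1.64, adjusted p = 0.0155) ended without intestine GFP 3 (adjusted p = 0.0505), intestine DsRedx 1 (adjusted p = 0.0502) and intestine DsRedx 3 (adjusted p = 0.0514) and held in the other 9 leave-one-out fits (log2 fold over all 12 fits 5.62 without gill GFP 2 to 6.63).

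The receptor chain genes of interleukin 10 were read in all 4 groups. The gene il10ra had 414, 655 and 223 CPM in gill GFP libraries, 609, 651 and 1268 CPM in gill DsRedx libraries, 458, 521 and 329.9 CPM in intestine GFP libraries and 395, 884 and 719 CPM in intestine DsRedx libraries. The gene of the common second chain, il10rb, had 247, 152 and 382 CPM in gill GFP libraries, 599, 201 and 299 CPM in gill DsRedx libraries, 95.1, 139 and 187 CPM in intestine GFP libraries and 305, 171 and 314 CPM in intestine DsRedx libraries. Both overlapped between colors in both tissues and were not called, the log2 folds being -0.97 (SE 0.595) in gill and -0.61 (SE 0.592) in intestine for il10ra. A miss of the threshold does not show equal levels. The interleukin 13 receptor gene il13ra1 had 15.9, 9.17 and 0.933 CPM in gill GFP libraries, against 125, 2.09 and 176 CPM in gill DsRedx libraries, and passed in gill only without gill DsRedx 2 (log2 fold -4.17, adjusted p = 0.0288), among those 12 fits. In intestine it had 107, 183 and 173 CPM in GFP libraries, against 248, 334 and 183 CPM in DsRedx libraries, where the highest GFP and the lowest DsRedx library were nearly equal, and was not called.

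Of the genes with a TNFAIP name, TNFAIP3 encodes A20, a brake on NF-κB signaling, and was abundant in all groups. It had 789, 234 and 567 CPM in gill GFP libraries, 2265, 722 and 360.5 CPM in gill DsRedx libraries, 242, 283 and 298 CPM in intestine GFP libraries and 563, 539 and 434 CPM in intestine DsRedx libraries. Intestine libraries did not overlap between colors, but neither tissue gave a call (adjusted p = 0.273 in gill and 0.465 in intestine). The gene tnfaip8l2a missed the threshold in the average (log2 fold 2.78, SE 0.963, adjusted p = 0.0501), with 367, 289.8 and 281 CPM in intestine GFP libraries, against 3.17, 132 and 208 CPM in intestine DsRedx libraries. It passed without gill GFP 2 (log2 fold 3.07, adjusted p = 0.0337) and without gill DsRedx 1 (log2 fold 3.18, adjusted p = 0.0477). The sparse TNFAIP8L1 had 1 count in gill GFP libraries, against 39, 1 and 36 counts in gill DsRedx libraries, and 0 counts in intestine GFP libraries, against 19, 0 and 0 counts in intestine DsRedx libraries. Its averaged call (adjusted p = 0.0328) ended in each of the 12 leave-one-out fits (adjusted p 0.0544 to 1). The phagocyte enzyme gene il4i1, which is no cytokine but an amino acid oxidase, had 1.3, 21 and 1.25 CPM in intestine GFP libraries, against 60.2, 264 and 254 CPM in intestine DsRedx libraries, without overlap or a call (adjusted p = 0.157).

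A further 12 tested members, namely TNFRSF21, tnfsf10l, tnfrsfa, il15l, TNFAIP1, TNFAIP8L2, tnfsf10l4, tnfaip2b, tnfrsf14, TNFAIP8L3, il7 and IL16, were not called in either tissue, the lowest adjusted p being 0.145. Their highest library values ran from 1.91 CPM for tnfrsf14 to 311 CPM for TNFAIP8L2. By CPM, the colors overlapped in each tissue for all of them except tnfsf10l in intestine. That gene had 1, 1 and 1 counts in intestine GFP libraries, against 1, 129 and 5 counts in intestine DsRedx libraries. Intestine DsRedx 1 thus tied with the GFP libraries in counts. Only the scaling set it apart, at 0.138 CPM against 0.0868, 0.0957 and 0.0733 CPM. TNFRSF21 passed in the average without gill DsRedx 2 (log2 fold 3.99, adjusted p = 0.0351).

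The lower group of a called pair mostly lay near or below the shared level. Of the 18 calls within a tissue, 12 had all 3 libraries of the lower group at no more than 2 times that level. In 5 calls the libraries were split, and in 1, tnfb in intestine, all 3 lay above. For tnfrsf9a and il6r in gill and il21 in intestine the predicted level was only 0.0798 to 0.226 CPM. Libraries of the lower group held 0 or 1 counts there. At so few counts the comparison cannot tell the shared level from absence. After removal of the shared level, 4 of 9 calls were kept in gill (tnfrsf18, tnfrsf11a, il17rel and tnfrsf9b) and 4 of 9 in intestine (tnfb, il20ra, il22ra2 and tnfrsf18). In the average 20 of 23 were kept, and il17ra1a, tnfrsf1b and il4r.1 were lost (adjusted p 0.0525 to 0.127), at fitted log2 folds of 6.36, -3.42 and -2.55. Between tissues il17rel was kept, and the calls of tnfrsf9a and tnfrsf11a were lost at larger fitted folds (log2 fold -11.8 and -11.9). Over the 5 comparisons with a call, all 15 lost calls kept their sign, and in 14 of them the fitted fold was larger after removal, the exception being il4r.1 in the average. Removal takes a lower group near the shared level toward 0, so kept signs and larger folds follow largely from the removal itself. The number of genes with a count overlapped between colors in gill and was higher in GFP libraries in intestine, at 9931 to 11881 in gill GFP, 9506 to 10224 in gill DsRedx, 12802 to 13278 in intestine GFP and 11312 to 11767 in intestine DsRedx libraries. In intestine this number went with color, so a fit that holds both cannot fully tell them apart. With that number as a term in the fit, 3 calls were kept in gill (tnfa, tnfrsf18 and tnfrsf11a), 2 in intestine (il22ra2 and tnfrsf18) and 4 in the average (il20ra, il22ra2, tnfrsf18 and il6r). All 35 lost calls kept their sign there, and the fitted fold was larger in 22 and smaller in 13. The largest drop was that of tnfrsf1b in intestine, at a log2 fold of -2.25 with the term, against -5.95 without it.

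**Figure D4:**
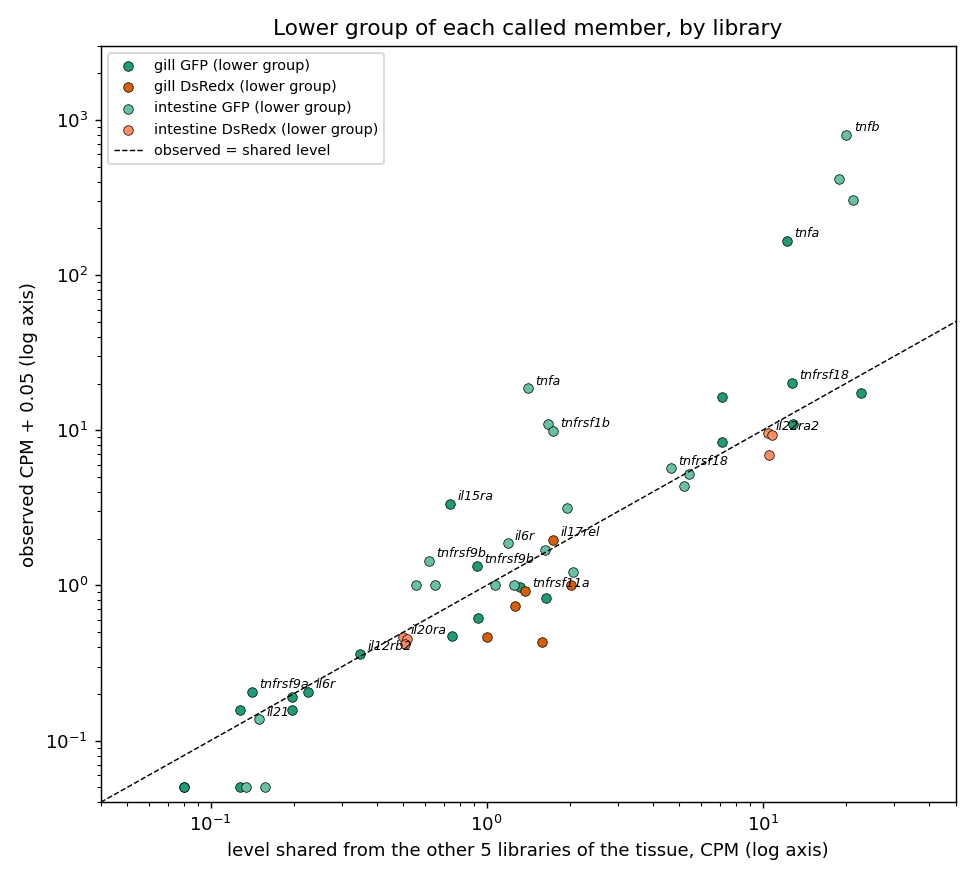
Observed CPM in each library of the lower group of the 18 called pairs (y axis, log scale) against the CPM that the other 5 libraries of the tissue predict at that library's shared level (x axis, log scale); points are libraries and the line marks equality. In 12 of the 18 pairs all 3 points are at most 2 times the prediction; tnfb in intestine lies above it in all 3.

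The second question was which members separate the tissues within a color. In GFP cells, 1 of 54 members was higher in gill than in intestine (0.703% of all genes) and 1 was lower (1.33% of all genes). In DsRedx cells, 1 member was called, lower in gill; of all genes 0.534% were lower and 0.225% higher. At an unadjusted p under 0.05, there were 12 members in GFP cells (15.8% of all genes) and 13 in DsRedx cells (21.1% of all genes). DESeq2 called 7 members in GFP cells (13.8% of all genes) and 8 in DsRedx cells (17.4% of all genes). The member higher in gill GFP cells was il17rel, at 167, 109.7 and 159.7 CPM in gill GFP libraries, against 0 counts in intestine GFP libraries. With 3 counts assumed over the intestine GFP group, il17rel was at least 1750.0-fold higher in gill (adjusted p = 0.00561), and the call held in all 12 leave-one-out fits. The member lower in gill GFP cells was tnfrsf9a, at 0, 0 and 1 counts in gill GFP libraries, against 1.65, 151 and 1.98 CPM in intestine GFP libraries, where intestine GFP 2 held most of the counts. That fall was 1046-fold by the ratio of pooled rates, with a 95% counting interval of 187 to 41330.0 (adjusted p = 0.0402), and the call held in 5 of 12 leave-one-out fits, those without gill DsRedx 1, gill DsRedx 2, gill DsRedx 3, intestine GFP 1 and intestine DsRedx 3, and ended in the rest (log2 fold over all 12 fits -11.77 without gill GFP 3 to -4.88 without intestine GFP 2, adjusted p 0.0522 to 0.256). In DsRedx cells tnfrsf11a was lower in gill, at 0.382, 0.869 and 0.414 CPM in gill DsRedx libraries, against 62.7, 40.0 and 74 CPM in intestine DsRedx libraries (103-fold lower, log2 fold -6.69, SE 1.53, adjusted p = 0.0428). The groups were far apart, yet the call ended in each of the 12 leave-one-out fits (log2 fold -7.14 to -6.44, adjusted p 0.0558 to 0.114). The filter on low counts also changed in those fits.

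Without a test, gill libraries lay above intestine libraries for 10 members in GFP cells (8.69% of all genes) and for 10 in DsRedx cells (6.74% of all genes). They lay below for 8 members in GFP cells (18.5% of all genes) and for 6 in DsRedx cells (12.2% of all genes). Among them, tnfa had 2829, 2179 and 506 CPM in gill DsRedx libraries, against 311, 200.3 and 198 CPM in intestine DsRedx libraries (log2 fold 2.96, SE 0.998, adjusted p = 0.153). The library value of il12bb in intestine DsRedx 1 again decided a call: without it il12bb was higher in gill than in intestine DsRedx cells (log2 fold 4.55, adjusted p = 0.00194), and with all libraries it was not called (adjusted p = 0.0909). Levels of il21 in GFP cells and of il22ra2 in DsRedx cells likewise passed only when certain libraries were left out, il21 without intestine DsRedx 1 or 3 and il22ra2 without gill GFP 1, gill DsRedx 1 or gill DsRedx 3. In il13ra1, GFP cells gave 15.9, 9.17 and 0.933 CPM in gill, against 107, 183 and 173 CPM in intestine, a difference called only without gill DsRedx 2 (log2 fold -4.05, adjusted p = 0.0307), among those fits.

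The third comparison asked whether the color difference itself differed between gill and intestine. No member was called in either direction by edgeR, against 0.0563% of all genes higher and 0.0938% lower. At an unadjusted p under 0.05 there were 7 of 54 members, or 13%, where 14.1% of all genes were, and DESeq2 called 3 members (7.09% of all genes). Groups in opposite order without overlap were seen for tnfrsf11a, whose log2 fold of GFP over DsRedx was 7.58 in gill and -1.20 in intestine, and for il12ba, where it was -5.49 in gill and 4.98 in intestine (adjusted p of the difference = 0.079 and 0.178). The intestinal fold of il12ba is a fitted value against a group of 3 counts, and its lack of overlap there rests on 3 counts against 2.

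Behind these receptors lies a shared signaling machinery, for which 55 genes of the JAK-STAT and NF-κB pathways were listed. Of these, 47 were found and 44 tested. In GFP cells 1 of the 44 was called in gill (2.31% of all genes were lower), 1 in intestine (2.03%) and 5 in the average (7.3%), all of them lower, so that within a tissue the list was at the share of all genes. The gill call was nfkbiaa, the gene of an NF-κB inhibitor that NF-κB itself induces, at 550.4 ± 243 CPM in gill GFP cells and 3126 ± 159 CPM in gill DsRedx cells (5.68-fold lower, adjusted p = 0.00599). The intestine call was IRAK3, a brake on interleukin 1 and toll-like receptor signaling, at 119 ± 31.2 CPM in intestine GFP cells and 661 ± 171 CPM in intestine DsRedx cells (5.53-fold lower, adjusted p = 0.0194). Both were called in the average, together with stat2, a factor of interferon signaling, and caspa and caspb, inflammatory caspase genes of zebrafish.

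The filter on low counts asks for a minimum level in 3 libraries, so members of high total below it lie in few libraries by that rule. The highest totals belonged to tnfsf12, il7r, il22, CSF3R, TNFSF10, il12rb1, csf3a and tnfaip2a. The barrier cytokine gene il22, which acts on epithelia, had 73.9, 40.4 and 0.293 CPM in intestine GFP libraries, against 0.138, 0.796 and 0.124 CPM in intestine DsRedx libraries, and 0 counts in gill. So 2 of the 3 intestine GFP libraries carried it. Interleukin 7 receptor gene il7r, a lymphocyte gene, had 27.4, 0.265 and 149 CPM in intestine DsRedx libraries, at most 0.26 CPM in intestine GFP libraries and 0 counts in gill. The TNF family ligand gene tnfsf12 reached 109 CPM in gill DsRedx 3, 90.4 CPM in intestine DsRedx 2 and at most 0.741 CPM elsewhere. CSF3R, the receptor of granulocyte growth factor, reached 55.1 CPM in gill DsRedx 3, and in intestine DsRedx 3 it reached 23.8 CPM. The death ligand TNFSF10 reached 36.3 CPM in intestine DsRedx 3, il12rb1, an interleukin 12 receptor chain, 29.1 CPM in intestine DsRedx 1, csf3a 17.8 CPM in intestine DsRedx 1 and tnfaip2a 14.4 CPM in intestine GFP 2. The other 9 below the filter, IL17RD, il15, il11b, il17ra1b, il13ra2, il17ra2, TNFRSF19, a second IL1RAPL1 gene and il17a/f2, had 2 to 92 counts over the 12 libraries. The B cell ligand gene tnfsf13b reached 14.5 CPM in gill DsRedx 1.

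The anti-inflammatory cytokine gene IL10, the acute phase inducer il6 and the type 2 cytokine gene il13 were scarce at this depth. IL10 had 23 counts over the 12 libraries, il6 had 6 and il13 had 3. A further 20 members had 0 counts in every library, namely the ligand genes il2, il4, il11a, il12b2, il17a/f1, il17a/f3, IL17D, il23a, il26, tnfsf10l3, tnfsf11, tnfsf13 and tnfsf14, the receptor genes il2rb, il2rgb, il21r.2, il23r, IL1RAPL2 and 1 of the IL1RAPL1 genes, and TNFAIP6. With 3 counts as the most that a count of 0 allows in a library, these may be present below that level. No gene was found under the symbol il1rap.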

How the data were processed

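The deposited count table held raw whole-number counts by the authors for 32520 Ensembl genes in 12 libraries, and the deposited TPM table the same samples as TPM, a length-corrected unit, also computed by the authors. The submitters' processing notes name danRer11, STAR and featureCounts; the sources used here give no versions, strand setting or rule for reads that match paralogs. Symbols came from a gene name table (29201 of 32520 identifiers matched), and members were the 96 identifiers whose symbol met the naming rule. Counts were tested with edgeR 4.0.16 (R 4.3.3): filterByExpr left 10666 genes, libraries were scaled by TMM, and a quasi-likelihood F test was fitted with 1 mean per group (8 residual degrees of freedom) and Benjamini-Hochberg adjustment over all 10666 genes. The script was tested on simulated data. A fold is the model's own. Against 0 counts it is a bound from 3 counts over the group, and against 1 to 3 counts it is the ratio of pooled rates with an exact 95% interval, which covers counting error only. Every called member is named, and so are the 3 of highest level in each group that were not called, 32 members always looked up, and the 8 highest totals below the filter. The others named (il12ba, tnfsf18, tnfrsf11b, il13ra1, tnfaip8l2a, il4i1, tnfsf13b, il19l, the 12 further tested members, the 9 further ones below the filter and the 20 with 0 counts) were chosen after their values were seen, as was the grouping by role and the MPEG1 lookup. The members and all lists were chosen with earlier results of these data known. Alternatives were other scaling (RLE), no filter, at least 10 CPM in 3 libraries, DESeq2 1.42.0, the replicate number as a block, only the groups compared, limma 3.58.1 on log2(TPM + 1) or log2(TPM + 0.1) with and without a filter at 1 TPM in 3 libraries, the shared level removed, a covariate for the number of genes detected, and leaving out each library. No sequence was used here.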

Additional observations from a re-analysis of the deposited data

Results flagged for a closer look

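In tnfrsf11a the color difference ran in opposite directions in the tissues: all 3 GFP libraries lay above all 3 DsRedx libraries in gill (log2 fold 7.58) and below them in intestine (log2 fold -1.20). The difference of the log2 folds was 8.78, and its test did not pass (adjusted p = 0.079).

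In il12ba the libraries did not overlap either and the order was the reverse, GFP below DsRedx in gill (log2 fold -5.49) and above it in intestine (log2 fold 4.98). The difference of the log2 folds was -10.46, and its test did not pass (adjusted p = 0.178). The intestine DsRedx libraries together held 3 counts of il12ba, and intestine GFP 3 held 176 of the 183 counts in intestine GFP libraries. The lack of overlap in intestine rests on 3 counts in intestine GFP 2 against 2 in intestine DsRedx 3. Groups of 3 libraries are too small for a test of single outlying libraries, and none was made beyond the default screen of DESeq2 for outlying counts.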

How the results depend on the processing

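No value of a tested member changed sign under any alternative while called. Of 7225 member values recomputed under an alternative, 6805 stayed on their side of the threshold, 285 lost and 135 gained a call. Most of the 7225 values were of members not called, which had no call to lose. The 285 losses fell on the calls of the main fit alone, 9 in gill, 9 in intestine and 23 in the average. Between tissues it had 2 calls in GFP and 1 in DsRedx cells. DESeq2 called more members, 25 in gill, 21 in intestine, 7 between tissues in GFP cells, 8 in DsRedx cells and 3 for the difference, and it called more of all genes than edgeR as well, 2713 against 490 in gill, 2228 against 439 in intestine, 1394 against 217 and 1716 against 81 between tissues in GFP and DsRedx cells, and 701 against 16 for the difference. With the shared level removed the calls were 4 in gill, 4 in intestine, 1 between tissues in GFP cells and 0 in DsRedx cells. All genes then gave 235, 307, 85 and 2 calls, of 10633 tested. With a covariate for the number of genes detected, member calls were 3 in gill, 2 in intestine, 4 in the average and 0 between tissues in either color. All genes then gave 244, 132 and 335 calls, and 18 and 3 between tissues in GFP and DsRedx cells, of 10666 tested. Without a filter on low counts the tissue comparisons gave 4 calls in GFP cells and 6 in DsRedx cells, and the difference 1, of 76 members. All genes then gave 324, 267 and 107 calls, of 19843 tested. RLE scaling gave 1 call in GFP cells and 0 in DsRedx cells between tissues, where 193 and 49 of 10666 genes were called. The fit with only the groups compared gave 0 in DsRedx cells, where 54 of 6099 genes were called. On log2(TPM + 1), limma called 4 of 54 members between tissues in GFP cells, 2 in DsRedx cells and 2 for the difference. Of 10773 genes it called 761, 112 and 269 there. On log2(TPM + 0.1) it called 3 members in DsRedx cells and 151 of all genes. Without the TPM filter, limma on log2(TPM + 1) called 5 of 76 members in gill, 12 in the average and 2 for the difference. Of 19843 genes it called 589, 1287 and 89 there. Leaving out 1 library gave 2 to 10 calls in gill, 3 to 11 in intestine and 16 to 23 in the average. All genes then gave 231 to 492, 181 to 543 and 902 to 1380 calls, of 11924 to 12527 tested. Between tissues there were 1 to 3 member calls in GFP cells and 0 to 1 in DsRedx cells, and 0 for the difference. All genes gave 96 to 273, 35 to 83 and 1 to 17 calls there. The causes of these changes were not tested.

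Whether replicate numbers pair the libraries was checked: deviations from the group means correlated at -0.0319 to 0.0399 between same-numbered libraries and at -0.0344 to 0.0317 between others, and 7 of 12 libraries correlated best with their own number. Between colors of 1 tissue, same-numbered libraries correlated at 0.00476 to 0.0221 in gill and 0.0305 to 0.0399 in intestine. Differently numbered ones ran from -0.017 to 0.0101 in gill and from -0.0344 to -0.00339 in intestine. The check does not settle whether numbers mark pairs. The main fit did not pair the libraries because the labels state no pairing. With the replicate number as a block, the calls were 6 in gill, 7 in intestine, 18 in the average, 1 between tissues in GFP cells, 1 in DsRedx cells and 0 for the difference. All genes gave, in the same order, 347, 385, 1157, 218, 75 and 23 calls, of 10666 tested. Of the member calls with the block, 6 in gill, 6 in intestine, 17 in the average and 1 in GFP cells were calls of the main fit. The call in DsRedx cells was another member, higher in gill. The main call there, tnfrsf11a, was lost (adjusted p = 0.0846 by edgeR with the block). Log2 CPM values of replicate libraries correlated at 0.572 to 0.727 across genes, which are not independent replicates. Depth limits the members of few counts, and 3 libraries per group limit what can pass the test.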
